A study of Rattus norvegicus with 8 samples.

Results

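The genes described here are the rat matrix metalloproteinases (MMPs), the ADAMTS proteases, the ADAMTS-like proteins and the tissue inhibitors of metalloproteinases (TIMPs). They were chosen by gene symbol from the raw count table, which held 49 of them among 28546 gene entries. Of the 49, 37 had 10 or more counts in at least 3 of the 8 libraries and are described as expressed, and 12 did not reach that level. The expressed genes comprised 11 of 21 Mmp genes, 17 of 19 Adamts genes, 5 of 5 Adamtsl genes and 4 of 4 Timp genes. The symbol rule itself used no difference between groups, but it was set with earlier results of these data known. A gene could also meet the count rule through the groups where it was high.

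The libraries are bulk RNA-seq of cultured astrocytes from Sprague Dawley rat pups that were exposed to 12-273 BM melanoma cells. The 3 sh-APP libraries come from astrocytes that met melanoma cells with a hairpin named shAPPa, directed at APP, the amyloid precursor protein. The 3 anti-Abeta libraries come from exposure to melanoma cells with a scrambled hairpin plus an antibody to amyloid beta, and the 2 control libraries from the scrambled hairpin without that antibody. All 3 groups met melanoma cells or their medium, so no group shows astrocytes alone. The labels name both a co-culture and a 24 h incubation in conditioned medium, and they do not say which cultures or pups stand behind each library, so the spread behind each p-value may be technical.

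MMPs are zinc-dependent proteases that are made as inactive proenzymes and cut collagens, other matrix proteins and many cell-surface proteins. ADAMTS proteases share the zinc-binding catalytic domain and carry thrombospondin repeats. Some of them cut the lecticans, the chondroitin sulphate proteoglycans of brain matrix. TIMPs are secreted proteins that block the active site, and the balance of protease and inhibitor at the astrocyte surface is known to bear on the glial boundary around blood vessels and on matrix turnover.

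Total counts ran from 34250464 to 47831595 per library, and levels below are CPM, counts scaled to a common library total with TMM factors (1.04 to 1.06 in sh-APP, 0.99 to 1.03 in anti-Abeta, 0.90 and 0.92 in control). The first principal component held 43.4% of the variance and separated the 3 groups, and anti-Abeta replicate 1 stood apart on the second (47.4, against -11 to 0.63 in the other libraries). Astrocyte markers were present in every library, with a summed level of 14400 to 16700 CPM in sh-APP, 11000 to 11400 in anti-Abeta and 11900 in both control libraries. Gfap averaged 6532 CPM in sh-APP, 3728 in anti-Abeta and 2911 in control, and Slc1a3 4651, 4205 and 5100 CPM in the same groups. In sh-APP against control, Gfap, Aldoc, Aldh1l1, S100b and Slc1a2 were higher at an edgeR adjusted p under 0.05. Aqp4, Slc1a3 and Gjb6 did not pass there. In anti-Abeta against control, Gfap and Aldh1l1 were higher and Aqp4 and Slc1a3 lower, while Slc1a2, Aldoc, Gjb6 and S100b did not pass. Of markers of other cells, Cx3cr1 of microglia, Cldn5 of endothelium and Slc17a6 of neurons were at 0 in all libraries. The summed level of 7 pericyte and fibroblast markers was 37.5 to 39.9 CPM in sh-APP, 30.6 to 36.9 in anti-Abeta and 25.0 to 27.9 in control, and that of 5 endothelial markers was 6.14 to 8.37, 3.30 to 5.67 and 2.59 to 3.11 CPM in the same groups. For 7 microglia and macrophage markers the ranges were 10.5 to 13.0, 11.8 to 21.8 and 11.7 to 15.4 CPM, and for 8 oligodendrocyte lineage markers 2740 to 2890, 2690 to 3020 and 2310 to 2390 CPM. For 6 neuron markers they were 32.8 to 33.9, 54.5 to 60.0 and 71.3 to 79.8 CPM, and for 7 melanocyte and melanoma markers 29.7 to 31.3, 32.2 to 48.0 and 45.1 to 46.9 CPM. The melanocyte genes Mlana, Tyr, Tyrp1 and Dct each averaged under 1 CPM in every group. The melanocyte sum was mostly Mitf, with means of 27.0 CPM in sh-APP, 32.4 in anti-Abeta and 41.5 in control. Mitf was lower in sh-APP against control (-0.62 ± 0.15 on the log2 scale, edgeR adjusted p = 0.00311), and Pmel and Sox10 did not pass. Sox10 is in the oligodendrocyte list too. What melanoma RNA would add to these counts was not tested. Single markers did not all follow these sums in sh-APP against control. Of the 8 oligodendrocyte lineage markers, 1 was called higher and 1 lower. Their sum was mostly Olig1, with means of 2263 CPM in sh-APP and in anti-Abeta and 1819 in control. Olig1 was called higher (0.32 ± 0.08 on the log2 scale, edgeR adjusted p = 0.00469). Pdgfra, with means of 16.9 CPM in sh-APP, 29.6 in anti-Abeta and 33.7 in control, was called lower (-0.998 ± 0.183, adjusted p = 0.000599). The microglial sum was mostly Cd68, which did not pass, while Tyrobp was called higher with 20, 33 and 29 counts in sh-APP, 10, 20 and 13 counts in anti-Abeta and 5 and 1 counts in control (edgeR adjusted p = 0.00881), and Csf1r lay above control without passing (adjusted p = 0.0897). Of the endothelial genes, Kdr, with 17, 20 and 10 counts in sh-APP, 17, 6 and 6 counts in anti-Abeta and 3 and 0 counts in control, and Egfl7, at 1.36 ± 0.31 on the log2 scale, were called higher (adjusted p = 0.0395 and 0.00246). The neuronal sum fell with Snap25 (-1.57 ± 0.09, adjusted p = 1.57e-06), while Rbfox3 and Tubb3 were called higher (0.72 ± 0.27 and 1.00 ± 0.26, adjusted p = 0.0405 and 0.00547). The part of these markers in the results below was not tested. In bulk RNA, fewer cells of a type and less RNA per cell cannot be told apart.

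In sh-APP against control, 8 of the 37 expressed genes rose and 3 fell in edgeR's quasi-likelihood test, with an adjusted p under 0.05 over all 14445 tested genes. Those 11 are 29.7% of the 37, where 53.7% of all tested genes were called. In the single directions, 25.8% of all tested genes were higher and 27.9% lower. The inhibitors Timp1 and Timp2, the proteases Mmp2, Mmp19, Mmp23 and Mmp24 and the ADAMTS-like genes Adamtsl3 and Adamtsl4 rose, and the proteases Adamts1, Adamts12 and Adamts19 fell. Adamts19 met the count rule only through libraries of control and anti-Abeta. In anti-Abeta against control, 5 were higher (Timp2, Mmp2, Mmp15, Mmp17 and Adamts7) and 1 lower (Mmp16), which is 16.2% of the 37 beside 29.2% of all tested genes (12.7% higher and 16.6% lower). In sh-APP against anti-Abeta, 6 were higher (Timp2, Mmp16, Mmp19, Mmp24, Adamtsl3 and Adamtsl4) and 4 lower (Mmp15, Mmp17, Adamts7 and Adamts14), which is 27.0% beside 26.1% of all tested genes (10.1% higher and 16.0% lower).

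Libraries of the 2 groups did not overlap for 11 higher and 3 lower members in sh-APP against control (35.7% and 35.0% of all tested genes), for 12 and 3 in anti-Abeta against control (54.9% of all tested genes in either direction) and for 7 and 5 in sh-APP against anti-Abeta (41.3% in either direction, 22.1% lower). Of these members, Adamts16 and Adamts19 met the count rule through groups where they were high. The comparisons with control share the same 2 control libraries. Timp2 and Mmp2 were called in both of them. The median log2 fold change of the 37 genes was 0.23 in sh-APP and 0.24 in anti-Abeta against control, where the median of all tested genes was 0.03 in each. At an unadjusted p under 0.05 the members numbered 16, 13 and 14 in the 3 comparisons. With library totals alone, without TMM factors, the median of all tested genes moved to 0.23 in sh-APP and to 0.18 in anti-Abeta against control. The member calls were then 11 higher and 2 lower, and 12 higher and 1 lower. The share of rises among all calls went with it, to 62.6% where TMM scaling gave 48.0% in sh-APP against control, and to 71.7% where TMM scaling gave 43.4% in anti-Abeta against control. In sh-APP against anti-Abeta it was 49.5% with library totals and 38.5% with TMM scaling.

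**Figure D1:**
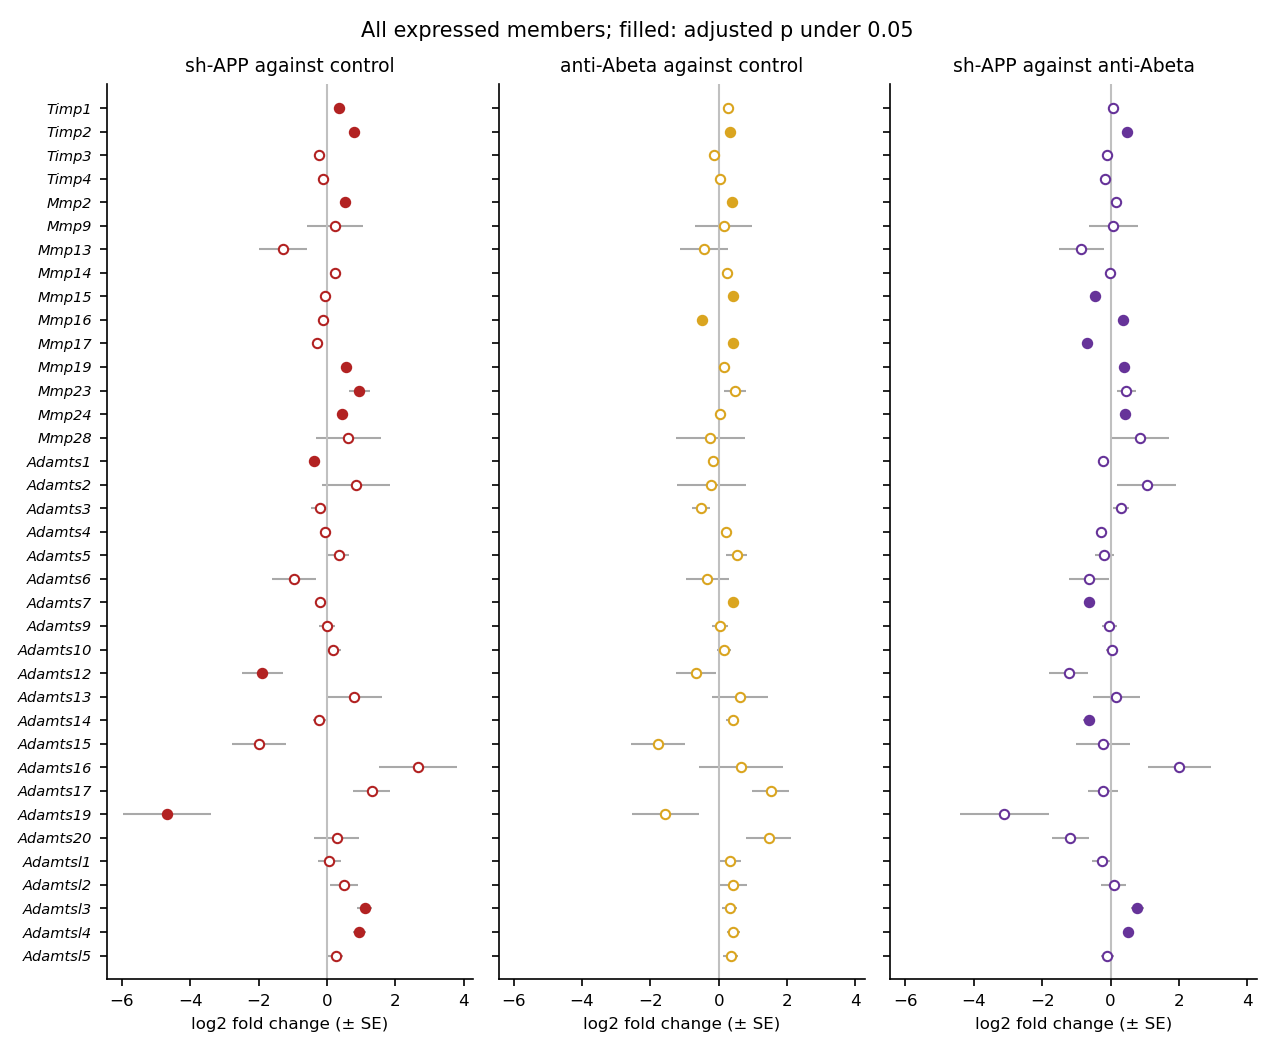
Log2 fold change (x axis, ± SE) of the 37 expressed genes (rows) in the 3 comparisons, 1 panel each; filled points passed an adjusted p of 0.05 in edgeR. Filled points number 11, 6 and 10 in the panels, and the genes with wide bars, such as Adamts19, are those with few counts.

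Of the inhibitors, Timp1 and Timp2 were called and Timp3 and Timp4 were not. Timp2, which both inhibits MMPs and helps the membrane protease MMP14 to activate the proenzyme of MMP2, had 272, 276 and 292 CPM in sh-APP, 193, 214 and 199 CPM in anti-Abeta and 141 and 180 CPM in control. All libraries of sh-APP lay above all of anti-Abeta, and these above both of control. The sh-APP over control log2 fold change of Timp2 was 0.80 ± 0.10 (SE) (edgeR adjusted p = 3.51e-05), that of anti-Abeta over control 0.33 ± 0.10 (adjusted p = 0.0253) and the difference 0.47 ± 0.09 in sh-APP against anti-Abeta (adjusted p = 0.00264). The sh-APP calls were kept under every alternative run. The anti-Abeta call was lost without control replicate 1 (0.16, adjusted p = 0.327), anti-Abeta replicate 2 (adjusted p = 0.0537) or anti-Abeta replicate 3 (adjusted p = 0.0542). Timp2 overlaps Cep295nl on the chromosome, which averaged 0 CPM in sh-APP and in anti-Abeta and 0.166 CPM in control.

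Timp1, the inhibitor that astrocytes are known to release on injury and inflammation, had 856, 887 and 750 CPM in sh-APP, 839, 691 and 819 CPM in anti-Abeta and 664 and 632 CPM in control. Every library of both arms lay above both control libraries, while the arms overlapped each other. For Timp1 the log2 fold change was 0.36 ± 0.10 in sh-APP against control (edgeR adjusted p = 0.00800), a call that ended without control replicate 2 (adjusted p = 0.0516). Against control, anti-Abeta had 0.27 ± 0.10, which did not pass in edgeR (adjusted p = 0.0541). It passed with DESeq2 (adjusted p = 0.0414), with no low-count filter (0.0312), with library totals (0.00643) and without anti-Abeta replicate 2 (0.00873). The difference between sh-APP and anti-Abeta was 0.09 ± 0.09 (adjusted p = 0.514).

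Timp3, which is bound to the matrix, had 48.3, 41.5 and 50.1 CPM in sh-APP, 57.5, 47.1 and 44.6 CPM in anti-Abeta and 61.4 and 48.0 CPM in control. Timp4, first known from heart and brain, had 46.6, 40.5 and 38.9 CPM in sh-APP, 45.4, 42.6 and 51.8 CPM in anti-Abeta and 48.5 and 42.3 CPM in control. Their groups overlapped in every comparison and neither passed. The log2 fold changes in sh-APP against control were -0.23 ± 0.13 for Timp3 (edgeR adjusted p = 0.171) and -0.11 ± 0.11 for Timp4 (adjusted p = 0.437), with Timp4 at 0.095 under library totals. Against control, anti-Abeta had -0.14 ± 0.13 for Timp3 (adjusted p = 0.472) and 0.04 ± 0.11 for Timp4 (adjusted p = 0.830), with Timp3 at 0.01 under library totals. Summed over the 4 inhibitors, the level was 1200 ± 60.8 CPM in sh-APP, 1081 ± 75.9 in anti-Abeta and 908.8 ± 9.32 in control (SD).

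Timp1, Timp3 and Timp4 lie within synapsin genes, Syn1, Syn3 and Syn2, in the rat annotation. Syn1, the host of Timp1, averaged 33.4 CPM in sh-APP, 32.2 in anti-Abeta and 33.2 in control, a log2 fold change of 0.01 ± 0.09 in sh-APP against control (edgeR adjusted p = 0.934) and -0.04 ± 0.09 in anti-Abeta against control (adjusted p = 0.760). Syn3 averaged 1.80 CPM in sh-APP, 1.80 in anti-Abeta and 1.26 in control and Syn2 0.700 CPM in sh-APP, 0.800 in anti-Abeta and 0.728 in control, and neither passed in either comparison with control. The sources used here do not say whether reads were counted by strand, so reads within an overlap may belong to either gene.

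**Figure D2:**
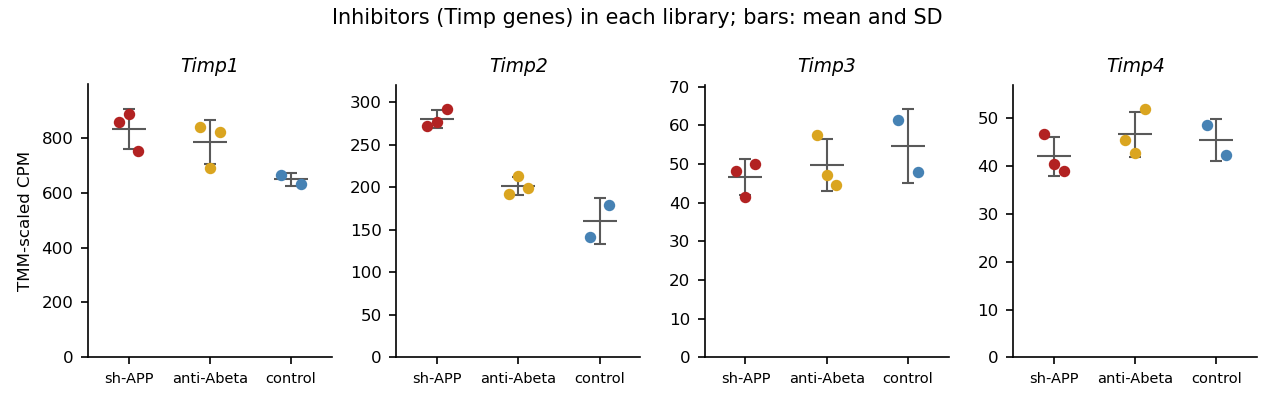
TMM-scaled CPM (y axis, from 0) of Timp1, Timp2, Timp3 and Timp4 in each library of sh-APP, anti-Abeta and control; points are libraries and bars the mean and SD. Timp2 shows 3 separate levels, from 272 to 292 CPM in sh-APP, 193 to 213 in anti-Abeta and 141 to 180 in control, while Timp3 and Timp4 overlap.

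Of the gelatinases, which cut denatured collagen and basement membrane collagen, Mmp2 was higher in both arms. Its levels were 49.4, 45.2 and 41.6 CPM in sh-APP, 40.7, 39.0 and 43.3 CPM in anti-Abeta and 32.3 and 30.4 CPM in control. Both arms lay wholly above control and overlapped each other. For Mmp2 the log2 fold change was 0.53 ± 0.10 in sh-APP (edgeR adjusted p = 0.000683), kept under every alternative run. In anti-Abeta it was 0.39 ± 0.10 (adjusted p = 0.0144), lost without control replicate 1 (adjusted p = 0.0866) or 2 (adjusted p = 0.0964). Between sh-APP and anti-Abeta it was 0.15 ± 0.09 (adjusted p = 0.244). Of the 6 tested pericyte and fibroblast markers, 2 were called higher and 0 lower in sh-APP against control, with a median log2 fold change of 0.12. Pdgfrb and Col1a1 had 0.93 ± 0.19 and 0.76 ± 0.17 (adjusted p = 0.00155 and 0.00194). The other 4 did not pass, with 0.40 ± 0.27 for Cspg4, -1.44 ± 0.67 for Lum, -0.54 ± 0.55 for Dcn and -0.15 ± 0.65 for Acta2. In anti-Abeta against control, 1 of the 6 markers was called higher and 0 lower, with a median log2 fold change of 0.22. That marker was Cspg4 with 0.96 ± 0.27 (edgeR adjusted p = 0.0202), while Pdgfrb and Col1a1 did not pass. The part of these markers in the Mmp2 values was not tested. Mmp9, the inducible gelatinase, had 71, 23 and 15 counts in sh-APP, 54, 6 and 32 counts in anti-Abeta and 21 and 30 counts in control. The libraries of each group lay far apart and the groups overlapped, and no comparison passed (log2 fold change 0.23 ± 0.83 in sh-APP against control, edgeR adjusted p = 0.837).

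Of the 5 membrane-type genes, Mmp24 rose in sh-APP, and in anti-Abeta Mmp15 and Mmp17 rose and Mmp16 fell. Mmp14, the main membrane-type protease and the activator of the MMP2 proenzyme, had 268, 247 and 243 CPM in sh-APP, 268, 228 and 272 CPM in anti-Abeta and 230 and 202 CPM in control. The sh-APP libraries lay above both control libraries, and 1 anti-Abeta library lay between them. For Mmp14 the log2 fold change was 0.23 ± 0.09 in sh-APP against control (edgeR adjusted p = 0.0589) and 0.24 ± 0.09 in anti-Abeta against control (adjusted p = 0.0697), and neither passed. With library totals both passed (0.43, adjusted p = 0.00169, and 0.40, adjusted p = 0.00756), and so they did without anti-Abeta replicate 2 (adjusted p = 0.0190 and 0.0139). The sh-APP value also passed with no low-count filter (adjusted p = 0.0426), with only the groups compared (0.0274) and without control replicate 1 (0.0410).

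Mmp15, a transmembrane protease close to MMP14, had 160, 201 and 159 CPM in sh-APP, 225, 237 and 250 CPM in anti-Abeta and 177 and 180 CPM in control. The anti-Abeta libraries lay above all others. Its log2 fold change was 0.41 ± 0.10 in anti-Abeta against control (edgeR adjusted p = 0.0121), -0.04 ± 0.10 in sh-APP over control (adjusted p = 0.747) and -0.45 ± 0.09 in sh-APP against anti-Abeta (adjusted p = 0.00395). The first of these calls was lost without control replicate 1 (adjusted p = 0.114) or 2 (adjusted p = 0.0587), while the difference between the arms was called under every alternative run.

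Mmp17, which is held to the membrane by a lipid anchor, had 23.4, 28.3 and 24.5 CPM in sh-APP, 37.7, 39.0 and 46.3 CPM in anti-Abeta and 28.3 and 33.5 CPM in control. Again the anti-Abeta libraries were highest, and sh-APP overlapped control. For Mmp17 the log2 fold change was 0.41 ± 0.13 in anti-Abeta against control (edgeR adjusted p = 0.0306), lost without control replicate 1 (0.28, adjusted p = 0.279) or anti-Abeta replicate 3 (adjusted p = 0.104). It was -0.28 ± 0.13 in sh-APP against control (adjusted p = 0.0782) and -0.69 ± 0.11 in sh-APP against anti-Abeta (adjusted p = 0.00161), and that last call was kept under every alternative run.

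Mmp16, another transmembrane protease, went the other way in the antibody arm, with 68.9, 75.6 and 82.3 CPM in sh-APP, 50.8, 67.3 and 59.1 CPM in anti-Abeta and 87.8 and 77.1 CPM in control. The anti-Abeta libraries were the lowest of the 8. For Mmp16 the log2 fold change was -0.48 ± 0.12 in anti-Abeta against control (edgeR adjusted p = 0.0111), lost without control replicate 1 (adjusted p = 0.137). It was 0.36 ± 0.11 in sh-APP against anti-Abeta (adjusted p = 0.0267), a call lost without sh-APP replicate 2 (adjusted p = 0.0575) or 3 (0.109), and likewise on leaving out anti-Abeta replicate 1 (0.0935) or 3 (0.0560). In sh-APP against control it was -0.13 ± 0.12 (adjusted p = 0.396).

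Mmp24, a membrane protease of the nervous system that is known to cut the amyloid precursor protein, had 42.2, 41.5 and 32.4 CPM in sh-APP, 29.1, 27.7 and 30.2 CPM in anti-Abeta and 29.6 and 27.0 CPM in control. The sh-APP libraries lay above all others, and anti-Abeta and control overlapped. For Mmp24 the log2 fold change was 0.45 ± 0.12 in sh-APP against control (edgeR adjusted p = 0.00765), lost without control replicate 2 (adjusted p = 0.0655), and 0.03 ± 0.12 in anti-Abeta against control (adjusted p = 0.864). It was 0.42 ± 0.11 in sh-APP against anti-Abeta (adjusted p = 0.0148), lost without sh-APP replicate 1 (0.0654) or 2 (0.0504). Mmp24 overlaps Mmp24os on the chromosome. Rat App itself, the gene of its substrate, averaged 612 CPM in sh-APP, 539 in anti-Abeta and 573 in control, a log2 fold change of 0.09 ± 0.08 in sh-APP against control (adjusted p = 0.323). The hairpin was directed at the melanoma cells, so that value is no check of the knockdown.

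**Figure D3:**
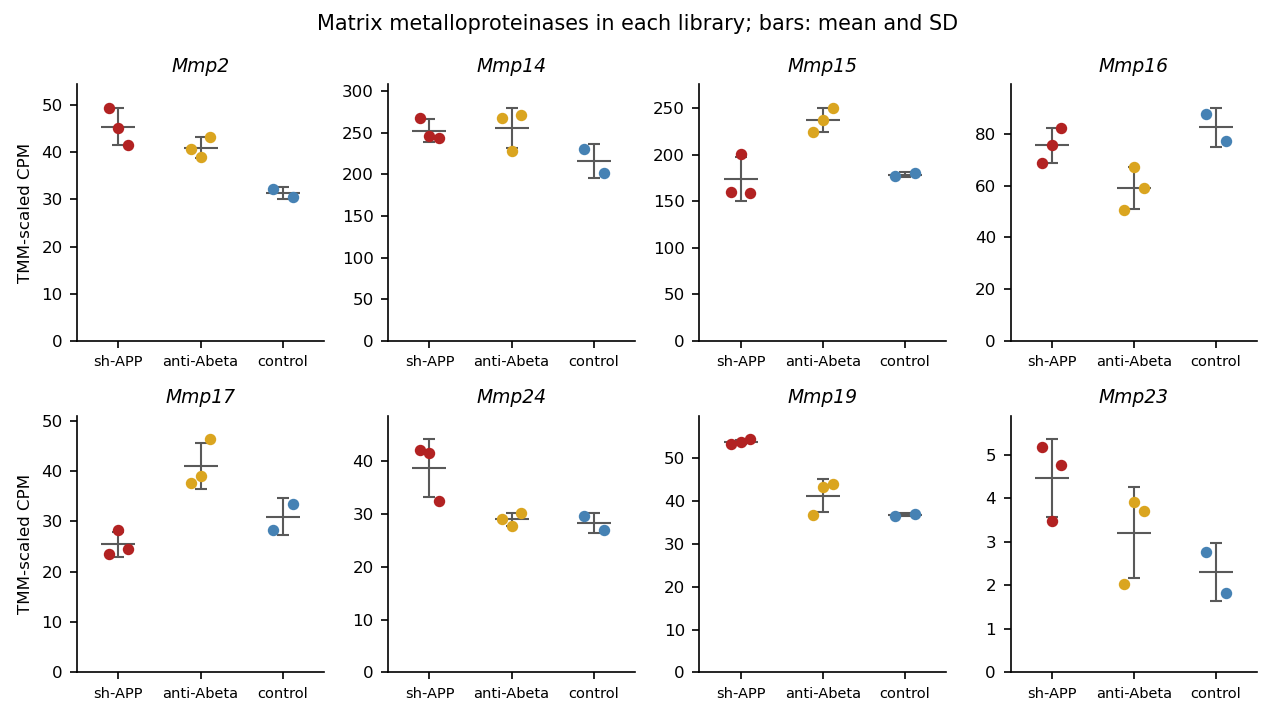
TMM-scaled CPM (y axis, from 0) of 8 Mmp genes in each library of sh-APP, anti-Abeta and control; points are libraries and bars the mean and SD. Mmp2, Mmp19, Mmp23 and Mmp24 are highest in sh-APP by mean, while Mmp15 and Mmp17 are highest in anti-Abeta, where Mmp16 is lowest.

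Among the other MMPs, Mmp19 and Mmp23 rose in sh-APP. Mmp19, a secreted protease of basement membrane proteins, had 53.4, 53.8 and 54.5 CPM in sh-APP, 36.8, 43.3 and 43.9 CPM in anti-Abeta and 36.6 and 37.1 CPM in control. The sh-APP libraries stood close together and above all the rest. For Mmp19 the log2 fold change was 0.55 ± 0.09 in sh-APP against control (edgeR adjusted p = 0.000390) and 0.38 ± 0.08 in sh-APP against anti-Abeta (adjusted p = 0.00640), both kept under every alternative run, and 0.17 ± 0.09 in anti-Abeta against control (adjusted p = 0.206). Mmp23, a membrane protease without the hemopexin domain of most MMPs, had 5.18, 3.47 and 4.76 CPM in sh-APP, 2.03, 3.91 and 3.71 CPM in anti-Abeta and 2.78 and 1.84 CPM in control. Its sh-APP libraries lay above control and overlapped anti-Abeta. The log2 fold change of 0.95 ± 0.32 in sh-APP against control (adjusted p = 0.0232) was no longer called without control replicate 2 (adjusted p = 0.188), sh-APP replicate 1 (0.0658) or sh-APP replicate 3 (0.0575).

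The collagenases, stromelysins, matrilysin and metalloelastase that inflamed or injured tissue is known to switch on were nearly silent in all 3 groups. Mmp1, Mmp1b, Mmp8, Mmp10, Mmp27 and Adamts18 had 0 counts in all 8 libraries, and by counting error alone a count of 0 allows up to 3 per library. Mmp3 had 3, 1 and 15 counts in sh-APP, 0, 8 and 2 in anti-Abeta and 11 and 0 in control. Mmp7 had 10 counts over all libraries, Mmp12 had 18 with 12 of them in anti-Abeta replicate 3, and Mmp21 had 12 with 11 of them in sh-APP replicate 3. Mmp20 had 8 counts and Adamts8 had 27. Mmp13, the rodent interstitial collagenase, was the only gene of this set that reached the level for expression, with 17, 21 and 7 counts in sh-APP, 24, 24 and 27 counts in anti-Abeta and 51 and 8 counts in control. The control libraries were far apart, sh-APP lay below anti-Abeta, and no comparison passed (log2 fold change -1.28 ± 0.71 in sh-APP against control, edgeR adjusted p = 0.151). Mmp28 had 2 to 17 counts and did not pass. Mmp11 and Mmp25 are not analysed here.

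Mmp13 and the silent genes Mmp1, Mmp1b, Mmp3, Mmp7, Mmp8, Mmp10, Mmp12, Mmp20 and Mmp27 neighbour each other on rat chromosome 8. Their promoters are shown because several human and rodent genes of this cluster are known to be switched on through AP-1, the Fos and Jun transcription factors, at a site just before the start. RefSeq promoter windows (build GRCr8, 250 bases before to 50 after the start) were found for 38 of the 49 genes, some with more than 1 start. The AP-1 motif TGANTCA, which reads the same on both strands, was in 7 of the 10 windows of this cluster, in 1 of 37 windows of the 27 expressed genes with a window, that of Mmp13, and in 7.33% of all 33469 windows. The windows of Mmp13 (chr8:12782579-12782878, plus strand, AP-1 motif from base -66), Mmp3 (chr8:12925031-12925330, plus strand, from base -71) and Mmp10 (chr8:12974457-12974756, plus strand, from base -61) follow, 5′ to 3′, with the motif in capitals.
Mmp13: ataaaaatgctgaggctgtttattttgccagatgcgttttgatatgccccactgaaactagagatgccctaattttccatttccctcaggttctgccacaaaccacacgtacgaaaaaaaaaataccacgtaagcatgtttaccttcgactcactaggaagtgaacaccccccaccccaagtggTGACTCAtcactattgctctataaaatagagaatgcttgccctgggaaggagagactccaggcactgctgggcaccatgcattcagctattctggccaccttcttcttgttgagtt
Mmp3: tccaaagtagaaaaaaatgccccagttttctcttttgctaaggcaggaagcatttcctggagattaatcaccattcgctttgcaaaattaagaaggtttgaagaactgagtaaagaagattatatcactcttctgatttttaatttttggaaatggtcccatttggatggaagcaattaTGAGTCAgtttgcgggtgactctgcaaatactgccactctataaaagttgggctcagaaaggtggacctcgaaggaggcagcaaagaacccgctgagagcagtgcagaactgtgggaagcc
Mmp10: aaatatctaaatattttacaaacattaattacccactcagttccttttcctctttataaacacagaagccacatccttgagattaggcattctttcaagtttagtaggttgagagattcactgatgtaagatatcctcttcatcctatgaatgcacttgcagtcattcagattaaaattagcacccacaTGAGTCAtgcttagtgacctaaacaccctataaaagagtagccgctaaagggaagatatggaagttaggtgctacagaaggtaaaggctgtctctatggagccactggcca

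The windows of the expressed genes were richer in G and C, with a median of 62.0% where the 10 cluster windows had 43.6% and all windows 51.7%. The GC box GGGCGG, searched on both strands, was in 20 of the 37 windows of expressed genes, in 0 of the 10 cluster windows and in 33.1% of all windows. Windows of the same gene were counted separately, such as those of Adamts13, some of which lie a few bases apart and which hold no GC box. The shares and medians are therefore per window and not per gene. Timp1 (chrX:3771073-3771372, minus strand) and Timp2 (chr10:104089165-104089464, minus strand) are shown as the inhibitors that rose in sh-APP, each with 1 GC box in capitals, here as CCGCCC, the letters of the other strand, from base -142 and base -54. Motif matches are a description of these letters only.
Timp1: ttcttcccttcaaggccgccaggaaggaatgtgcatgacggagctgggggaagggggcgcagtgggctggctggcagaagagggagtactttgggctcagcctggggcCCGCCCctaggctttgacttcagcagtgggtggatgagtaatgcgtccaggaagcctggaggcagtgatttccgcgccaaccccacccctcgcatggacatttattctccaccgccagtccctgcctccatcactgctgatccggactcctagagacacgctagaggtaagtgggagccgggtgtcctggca
Timp2: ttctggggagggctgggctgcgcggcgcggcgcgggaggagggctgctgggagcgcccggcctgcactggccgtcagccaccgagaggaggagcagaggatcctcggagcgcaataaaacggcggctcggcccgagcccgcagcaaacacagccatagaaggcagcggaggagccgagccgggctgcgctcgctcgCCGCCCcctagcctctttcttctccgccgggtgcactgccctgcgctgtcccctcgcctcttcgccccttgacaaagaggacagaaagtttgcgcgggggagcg

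Of the 6 expressed genes of the proteoglycan-cleaving ADAMTS class, Adamts1 fell in sh-APP and none of the others passed in any comparison. Adamts1, the first described member of the family and a protease of aggrecan and versican, had 69.5, 81.7 and 85.6 CPM in sh-APP, 95.0, 82.6 and 98.2 CPM in anti-Abeta and 108 and 98.0 CPM in control. All sh-APP libraries lay below both control libraries. For Adamts1 the log2 fold change was -0.39 ± 0.10 in sh-APP against control (edgeR adjusted p = 0.00727), lost without control replicate 1 (adjusted p = 0.0895) and with library totals (-0.18, adjusted p = 0.156). In anti-Abeta against control it was -0.17 ± 0.10 (adjusted p = 0.255), and in sh-APP against anti-Abeta -0.22 ± 0.09 (adjusted p = 0.105).

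Adamts4, an aggrecanase that also cuts brevican and that oligodendrocytes are known to make, had 42.1, 40.9 and 37.4 CPM in sh-APP, 50.6, 40.6 and 54.4 CPM in anti-Abeta and 39.4 and 44.5 CPM in control. Its groups overlapped, with log2 fold changes of -0.06 ± 0.12 in sh-APP against control (edgeR adjusted p = 0.682, and 0.14 with library totals) and 0.21 ± 0.12 in anti-Abeta against control (adjusted p = 0.221). Adamts5, the other main aggrecanase, had 1.50, 1.69 and 1.90 CPM in sh-APP, 2.23, 1.93 and 1.63 CPM in anti-Abeta and 1.58 and 1.08 CPM in control. The anti-Abeta libraries of Adamts5 lay above control, yet the log2 fold change of 0.53 ± 0.31 did not pass (adjusted p = 0.222). Adamts9, a protease of versican and aggrecan, had 7.18, 5.29 and 5.56 CPM in sh-APP, 5.88, 7.75 and 4.87 CPM in anti-Abeta and 4.81 and 7.21 CPM in control. Its log2 fold change in sh-APP against control had an SE of 0.24 around a value of 0.00 (adjusted p = 1.00), and -0.01 with DESeq2. Adamts15 and Adamts20, also lectican proteases, had at most 47 counts in any library. Summed over the class, the level was 127 ± 5.59 CPM in sh-APP, 149 ± 13.7 in anti-Abeta and 154 ± 1.68 in control (SD).

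Adamts7 and Adamts14 were highest in anti-Abeta. Adamts7, a protease of cartilage oligomeric matrix protein, had 32.5, 36.9 and 30.7 CPM in sh-APP, 50.1, 51.7 and 53.5 CPM in anti-Abeta and 41.4 and 36.0 CPM in control. The anti-Abeta libraries lay above all others. For Adamts7 the log2 fold change was 0.42 ± 0.10 in anti-Abeta against control (edgeR adjusted p = 0.0119), lost without control replicate 1 (adjusted p = 0.0572) or 2 (0.107). It was -0.21 ± 0.10 in sh-APP against control (adjusted p = 0.0991) and -0.63 ± 0.09 in sh-APP against anti-Abeta (adjusted p = 0.00105), and that last call was kept under every alternative run.

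Adamts14, which trims the amino end of procollagen, had 18.2, 32.4 and 26.7 CPM in sh-APP, 39.6, 44.1 and 36.2 CPM in anti-Abeta and 28.4 and 31.8 CPM in control. The anti-Abeta libraries again lay above all others. For Adamts14 the log2 fold change was -0.63 ± 0.17 in sh-APP against anti-Abeta (edgeR adjusted p = 0.0162), lost without anti-Abeta replicate 2 (adjusted p = 0.0526), and 0.41 ± 0.19 in anti-Abeta against control (adjusted p = 0.121). Of the other procollagen trimming genes, Adamts3 had 2.28 to 3.94 CPM in sh-APP, 2.28 to 2.86 in anti-Abeta and 3.28 and 3.92 in control, and Adamts2 had at most 24 counts in a library. Neither passed.

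Adamts12 and Adamts19 were called lower in sh-APP on few counts. Adamts12, the closest relative of Adamts7, had 0.981, 0.514 and 0.435 CPM in sh-APP, 1.77, 2.32 and 0.448 CPM in anti-Abeta and 3.39 and 1.38 CPM in control. Its sh-APP libraries lay below control, and anti-Abeta overlapped both. The log2 fold change of -1.89 ± 0.61 in sh-APP against control (edgeR adjusted p = 0.0202) was no longer called without control replicate 1 (-1.09, adjusted p = 0.293), sh-APP replicate 2 (0.0669) or sh-APP replicate 3 (0.0657). Adamts19, whose substrates are little known, had 0, 2 and 0 counts in sh-APP, 0, 7 and 13 counts in anti-Abeta and 17 and 16 counts in control. It reached 10 counts only in both control libraries and anti-Abeta replicate 3, so it met the rule through groups where it is high. Its low level in sh-APP is therefore given as a description. The scaled counts of sh-APP were 0.033 times those of control (95% interval 0.00383 to 0.129, exact, counting error only). The edgeR call (adjusted p = 0.00797) was kept under every alternative run. As the gene entered through groups where it is high, neither that call nor the interval is taken as support.

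Of the remaining ADAMTS genes, none passed in any comparison. Adamts10, which acts on fibrillin microfibrils, had 361 to 634 counts per library, Adamts17 had 12 to 56, and Adamts6, Adamts13 and Adamts16 had at most 52 in any library. Adamts16 had 18, 35 and 19 counts in sh-APP, 13, 1 and 1 counts in anti-Abeta and 1 and 5 counts in control. It did not pass (edgeR adjusted p = 0.0675 in sh-APP against control). Adamts16 reached 10 counts only in the sh-APP libraries and anti-Abeta replicate 1. It thus met the rule through the group where it is high, and its higher level in sh-APP is a description. Adamts17 had 28, 44 and 47 counts in sh-APP, 43, 56 and 25 counts in anti-Abeta and 14 and 12 counts in control. Both arms of Adamts17 lay above control without passing (adjusted p = 0.0616 and 0.0550). Adamts13, the protease of von Willebrand factor, had 10 to 52 counts in sh-APP, 9 to 29 in anti-Abeta and 10 and 14 in control.

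Adamtsl3 and Adamtsl4, secreted proteins built like ADAMTS proteases but without the catalytic domain, were highest in sh-APP. Adamtsl3 had 15.5, 11.4 and 13.1 CPM in sh-APP, 9.28, 5.95 and 8.07 CPM in anti-Abeta and 7.31 and 5.08 CPM in control. The sh-APP libraries lay above all others. For Adamtsl3 the log2 fold change was 1.10 ± 0.23 in sh-APP against control (edgeR adjusted p = 0.00124), kept under every alternative run, and 0.32 ± 0.22 in anti-Abeta against control (adjusted p = 0.303). In sh-APP against anti-Abeta it was 0.78 ± 0.19 (adjusted p = 0.0121), lost without sh-APP replicate 1 (adjusted p = 0.0536). Adamtsl3 overlaps Saxo2, which averaged 0.157 CPM in sh-APP, 0.803 in anti-Abeta and 0.204 in control.

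Adamtsl4, which binds fibrillin, had 10.5, 7.87 and 10.6 CPM in sh-APP, 6.17, 7.36 and 6.62 CPM in anti-Abeta and 4.48 and 5.56 CPM in control. As with Timp2, the groups formed 3 separate levels, with sh-APP highest and control lowest. For Adamtsl4 the log2 fold change was 0.94 ± 0.19 in sh-APP against control (edgeR adjusted p = 0.00114), kept under every alternative run, and 0.42 ± 0.19 in anti-Abeta against control (adjusted p = 0.115). The difference of 0.52 ± 0.16 between sh-APP and anti-Abeta (adjusted p = 0.0337) lost its call without sh-APP replicate 1 (0.116) or 3 (0.122), and likewise on leaving out anti-Abeta replicate 1 (0.0947) or 3 (0.0735). Adamtsl1, Adamtsl2 and Adamtsl5 had mean levels of 3.73, 3.24 and 4.34 CPM in sh-APP, 4.45, 3.04 and 4.63 CPM in anti-Abeta and 3.56, 2.30 and 3.62 CPM in control, and none of them passed in any comparison. Of all 37 genes, 21 passed in no comparison.

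**Figure D4:**
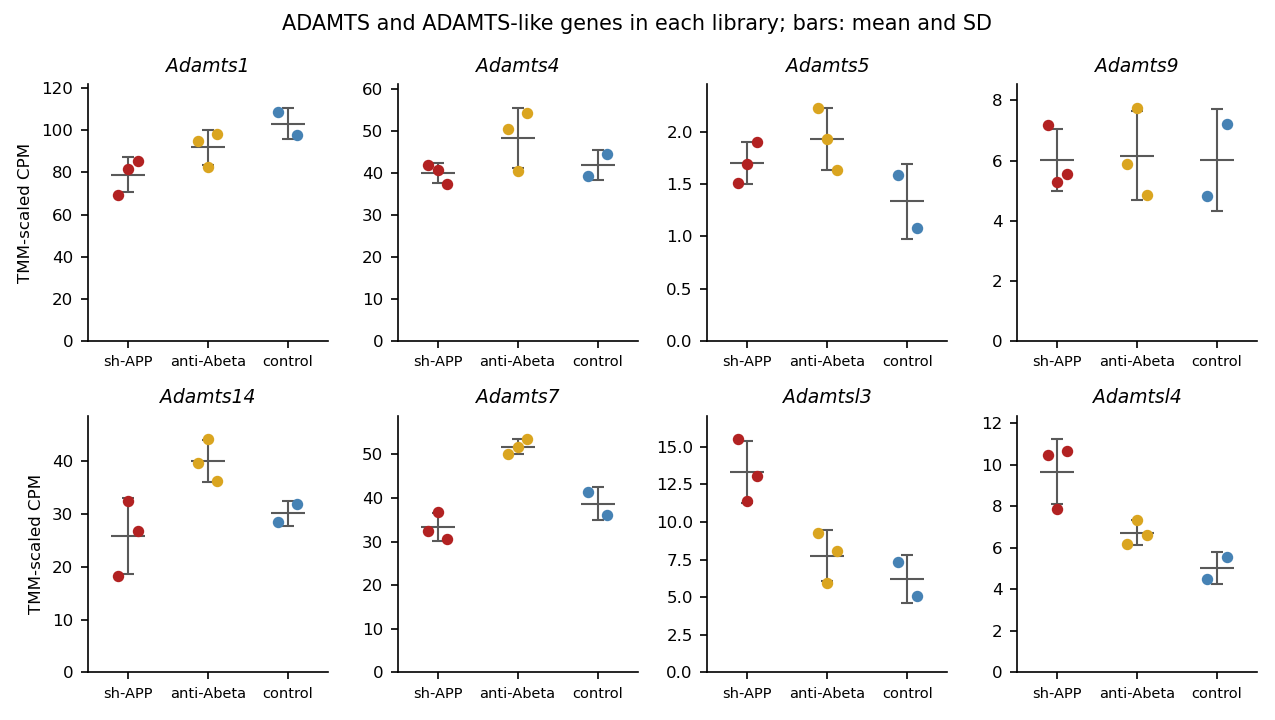
TMM-scaled CPM (y axis, from 0) of 6 Adamts and 2 Adamtsl genes in each library of sh-APP, anti-Abeta and control; points are libraries and bars the mean and SD. Adamts7 and Adamts14 are highest in anti-Abeta and Adamtsl3 and Adamtsl4 in sh-APP, while Adamts4, Adamts5 and Adamts9 overlap between sh-APP and control.

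Genes that act around these proteases were taken from 5 lists of activators, partners, other proteases and substrates. The counts below are to be read against all tested genes, of which 25.8% were higher and 27.9% lower in sh-APP against control (53.7% in either direction), 12.7% and 16.6% in anti-Abeta against control (29.2%) and 10.1% and 16.0% in sh-APP against anti-Abeta (26.1%). Of 10 tested genes of the plasminogen system and the proprotein convertases, 3 rose and 2 fell, a share near that of all tested genes, in the sh-APP arm relative to control, with a median log2 fold change of 0.24. The convertases Furin, Pcsk6 and Pcsk7, of which furin is known to cleave the propeptide of membrane-type MMPs, rose by 0.59 ± 0.09, 0.59 ± 0.12 and 0.48 ± 0.09 on the log2 scale (edgeR adjusted p = 0.000105, 0.000997 and 0.000863), and those calls were kept under every alternative run. Furin averaged 66.0 CPM in sh-APP, 52.5 in anti-Abeta and 43.7 in control.

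Plau, the urokinase that makes plasmin, averaged 218 CPM in sh-APP, 374 in anti-Abeta and 297 in control. Its difference of -0.78 ± 0.12 between sh-APP and anti-Abeta (edgeR adjusted p = 0.00119) was called under every alternative run. Against control, Plau fell by 0.45 ± 0.13 in sh-APP (adjusted p = 0.0121), a call that ended without control replicate 1 (0.209) and with library totals (0.111). Plat, the tissue activator, had -0.18 ± 0.07 (adjusted p = 0.0487), a call lost under 10 of the 14 alternatives, and 0.03 with library totals. In anti-Abeta against control 2 of the 10 were higher and 0 lower in edgeR, beside 29.2% of all tested genes called. Furin had 0.26 ± 0.09 (adjusted p = 0.0359), a call lost under 7 of the 14 alternatives with an adjusted p of up to 0.178, and Pcsk7 had 0.39 ± 0.09 (adjusted p = 0.0106), lost without control replicate 1 (0.120).

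Of 11 tested genes of the list of other inhibitors, surface partners and clearance, 5 rose and 2 fell, beside 53.7% of all tested genes called, in the sh-APP arm relative to control, with a median log2 fold change of 0.55. Lrp1, the receptor that takes up TIMPs and proteases, averaged 322 CPM in sh-APP, 264 in anti-Abeta and 209 in control, a log2 fold change of 0.62 ± 0.12 in sh-APP against control (edgeR adjusted p = 0.000788). Bsg, the surface inducer of MMPs also called EMMPRIN, rose by 0.55 ± 0.07 and Spock2, a testican, by 0.70 ± 0.10 (adjusted p = 4.07e-05 and 0.000128). Thbs2, a thrombospondin that binds MMP2 for its uptake, averaged 16.6 CPM in sh-APP, 6.56 in anti-Abeta and 5.98 in control. Its log2 fold change was 1.47 ± 0.26 in sh-APP against control (adjusted p = 0.000467) and 1.34 ± 0.22 in sh-APP against anti-Abeta (adjusted p = 0.00173). Tfpi2, a protease inhibitor, and Spock3, another testican, fell, with log2 fold changes of -1.34 ± 0.20 and -1.57 ± 0.30 in sh-APP against control (adjusted p = 0.000132 and 0.000847). The sh-APP calls against control of these 6 genes were kept under every alternative run. Reck, a membrane-anchored MMP inhibitor, had 0.19 ± 0.16 and did not pass (adjusted p = 0.329).

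Of 10 tested ADAM proteases, 1 rose and 5 fell, beside 25.8% and 27.9% of all tested genes, in the sh-APP arm relative to control, with a median log2 fold change of -0.41. Adam10 and Adam17, the main sheddases of the cell surface, fell, with log2 fold changes of -0.68 ± 0.11 and -0.43 ± 0.08 (edgeR adjusted p = 0.000233 and 0.000598), and so did Adam9 with -0.47 ± 0.08 (adjusted p = 0.000263), while Adam15 rose by 0.55 ± 0.08 (adjusted p = 0.000125). Those 4 calls were kept under every alternative run. In anti-Abeta against control 1 was higher and 2 were lower, with a median of 0.12. In sh-APP against anti-Abeta 5 of the 10 fell and 0 rose, where 16.0% of all tested genes fell. Of those calls, Adam9 was lost under 9 of the 14 alternatives, Adam10 under 6 and Adam17 under 2. The other calls, kept under every alternative run, were Adam12 with -0.61 ± 0.10 and Adam19 with -1.06 ± 0.26 (adjusted p = 0.00184 and 0.0111).

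Of 3 tested tolloids and enhancers, Bmp1, which cuts the carboxyl end of procollagen, and its enhancer Pcolce rose by 0.47 ± 0.11 and 0.63 ± 0.16 in sh-APP against control (edgeR adjusted p = 0.00373 and 0.00582), and both calls ended without control replicate 1 (0.0688 and 0.0562). Of the 4 tested ADAMTS substrates, the brain lecticans Ncan and Bcan passed in both arms and Vcan and Hapln1 in neither. Ncan averaged 1773 CPM in sh-APP, 1106 in anti-Abeta and 780 in control, and Bcan 1004 CPM in sh-APP, 752 in anti-Abeta and 524 in control. The anti-Abeta calls of Ncan and Bcan ended on leaving out control replicate 1 (0.0563 and 0.0529) or 2 (0.0878 and 0.0574).

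**Figure D5:**
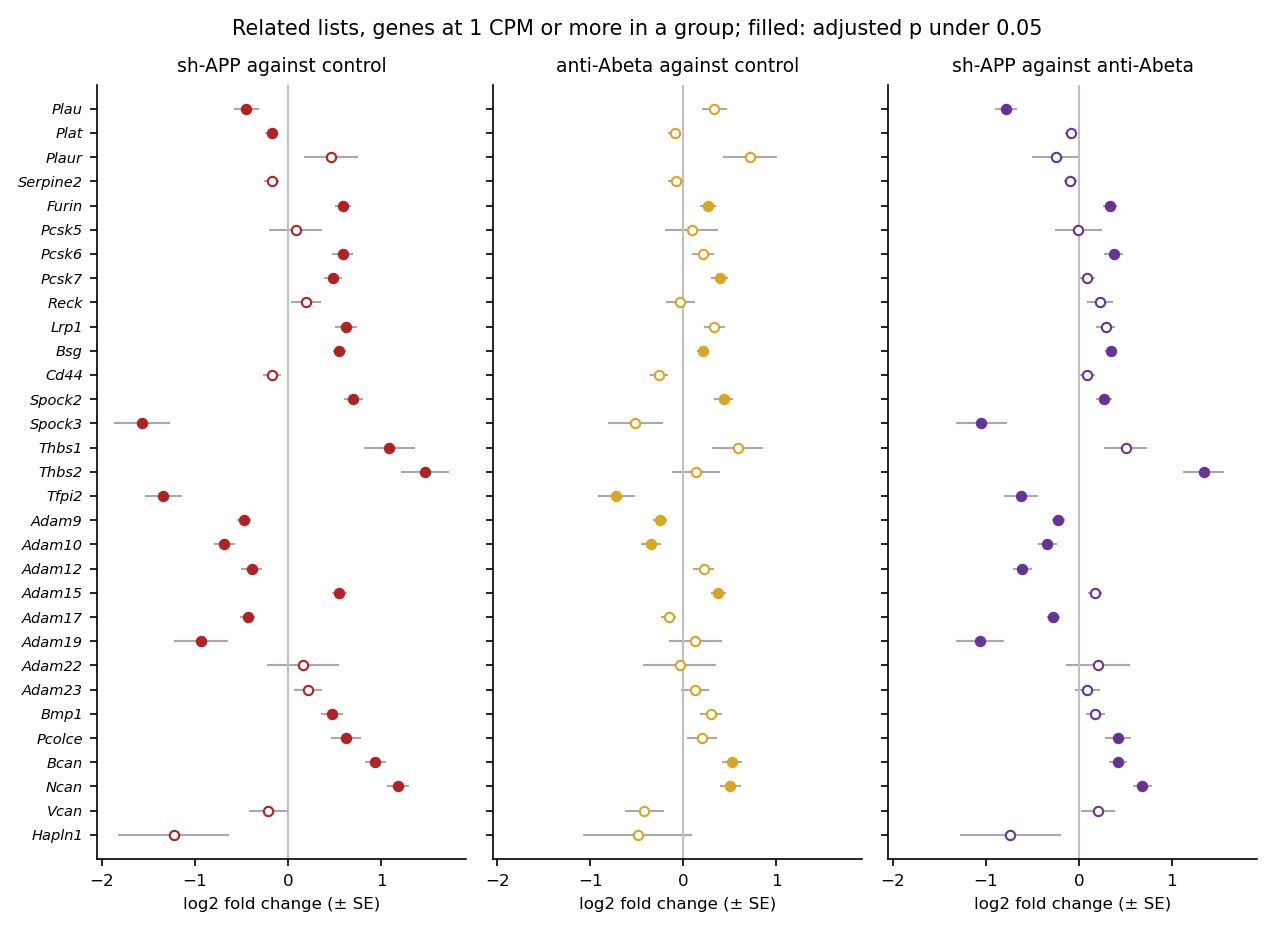
Log2 fold change (x axis, ± SE) of the related protease, inhibitor and substrate genes reported here that reached 1 CPM in a group (rows), in the 3 comparisons, 1 panel each; filled points passed an adjusted p of 0.05 in edgeR. Furin, Pcsk6, Lrp1, Bsg and Thbs2 are to the right of 0 in sh-APP against control and Adam10, Adam17 and Adam9 to the left.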

How the data were processed

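Whole-number counts per gene were used as the authors deposited them, 1 column per library. Per the submitters' processing notes, the build was rn6, and STAR 2.6.0a, HTSeq 0.11.1, Trimmomatic 0.36, SAMtools 1.9 and DESeq2 1.24.0 were also named; the sources used here give neither settings nor the strand rule. Counts were scaled by TMM and tested with edgeR 4.0.16 (quasi-likelihood, robust, all 8 libraries in one fit, filterByExpr with a minimum count of 10 and total of 15), in R 4.3.3, with Benjamini-Hochberg adjustment over all 14445 tested genes and a threshold of 0.05. Each SE was derived as the absolute log2 fold change over the root of the F statistic. The alternatives were DESeq2 1.42.0, DESeq2-type size factors, library totals, no filter, only the groups compared, a replicate block, and leaving out each of the 8 libraries. The members and lists were chosen with earlier results of these data known. Values in every library are given for called members averaging 1 CPM or more and for a fixed set of TIMPs and main proteases; Adamts13, Adamts16, Adamts17, Adamts19, Mmp3 and Mmp13 were added after their values were seen, as were the GC box and the host genes. Of each related list, up to 4 called genes with the smallest p per comparison are eligible, and Reck, Lrp1, Plau, Plat and Bsg always; some related genes are not reported here. Promoters are from RefSeq (GRCr8), matched by symbol for 38 of 49 genes; gene overlaps are also from GRCr8, while the counts rest on rn6. CPM ignores gene length, so levels are not compared between genes.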

Additional observations from a re-analysis of the deposited data

How the results depend on the processing

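With 2 control libraries, the comparisons with control rest heavily on each of them. Under every alternative run, 6 of the 11 member calls in sh-APP against control and 0 of the 6 in anti-Abeta against control were kept. In sh-APP against anti-Abeta, 5 of the 10 were kept. The kept calls against control include Adamts19, which met the count rule through groups where it was high. The cause of the losses was not tested. Leaving out 1 library at a time, the members higher numbered 5 to 10 in sh-APP against control, 0 to 7 in anti-Abeta against control and 3 to 6 in sh-APP against anti-Abeta, and the members lower 2 to 4, 0 to 2 and 4 to 5. All genes called then numbered 5942 to 7954, 439 to 4775 and 2233 to 3582. The low ends of the anti-Abeta counts came without control replicate 1. With library totals 12 members were higher in anti-Abeta against control. Deviations from the group means correlated at -0.0106 to 0.105 between same-numbered libraries and at -0.108 to 0.0262 between differently numbered ones. In groups of 2 or 3 libraries such deviations are tied to each other, so they cannot decide whether the numbers are pairs. The labels state no block, and the numbers were not taken as pairs. With the replicate block the members higher and lower were 8 and 4, 5 and 1, and 6 and 4, and all genes called 7328, 3480 and 3675.

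No called member changed direction. With library totals the log2 fold change in sh-APP against control turned to 0.139 for Adamts4, 0.161 for Mmp15, 0.079 for Mmp16, 0.095 for Timp4 and 0.028 for Plat; in anti-Abeta against control to 0.015 for Timp3, 0.122 for Reck and 0.060 for Plat; and in sh-APP against anti-Abeta to 0.024 for Adamts9 and 0.035 for Mmp14. Adamts9 in sh-APP against control was -0.013 with DESeq2 and -0.014 with its size factors. With the replicate block Mmp9 was -0.000 in sh-APP and -0.076 in anti-Abeta against control. Leaving out 1 library, uncalled values crossed 0 in sh-APP against control for Adamts4 (-0.143 to 0.043), Adamts9 (-0.254 to 0.339), Mmp15 (-0.160 to 0.015) and Mmp9 (-0.731 to 0.593). In anti-Abeta against control they did so for Adam19 (-0.110 to 0.398), Adamts12 (-1.174 to 0.117), Adamts9 (-0.237 to 0.356), Mmp24 (-0.033 to 0.093), Mmp9 (-0.776 to 0.619), Reck (-0.140 to 0.087), Thbs2 (-0.186 to 0.529), Timp3 (-0.308 to 0.039) and Timp4 (-0.057 to 0.129). In sh-APP against anti-Abeta they did so for Adamts9 (-0.183 to 0.188), Mmp14 (-0.072 to 0.029), Mmp9 (-0.876 to 1.005) and Timp3 (-0.164 to 0.026). Adamts19 in sh-APP against anti-Abeta has no value with only the groups compared, where it was filtered out. For the 11 expressed members under 1 CPM on average, few counts limit what could be detected.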
